A study of Mus musculus with 6 samples.

Results

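The Bcl6 locus of the mouse was described through the DNase I hypersensitive sites of a window of chromosome 16 (from 23.93 to 24.25 Mb in mm9), which by its definition holds Bcl6 and the flank upstream of it. Hotspots of all 6 libraries that shared at least 1 bp were merged into 75169 regions across chromosomes 1 to 19 and X, and 35 of these regions overlapped the window. They are called sites 1 to 35 here, from low to high coordinate. The libraries came from livers of C57BL/6 mice, 3 from mice fasted for 24 h and 3 from mice fed ad libitum, and every liver was taken at the hour at which the lights came on. Sex, age and the number of animals behind a library are not given in the labels, so the p-values reflect how far these samples vary, part of which can be technical. The assay cuts open chromatin with DNase I and sequences the fragments released (here at 40 U/ml, fragments of 100 to 500 bp). A hotspot is a local excess of such tags, and its maximum tag density is its height. RNA was not measured in these libraries, and densities say nothing of Bcl6 expression. In whole liver, fewer cells with an open site and less opening per cell cannot be told apart.

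BCL6 is a zinc finger repressor that acts by bringing corepressor complexes to DNA. In mouse liver it holds down genes of fatty acid oxidation that PPARα switches on in fasting, and its own gene is held down by STAT5 downstream of growth hormone. BCL6 and STAT5 bind closely related sequences built on the core TTCNNNGAA.

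RefSeq lists a pair of start regions for Bcl6, both on the minus strand, so that the upstream flank lies at higher coordinates. The 250 bases before each are shown because they are the control sequences closest to the gene, with matches to TTCNNNGAA (a palindrome, read on both strands) in capitals. The first lies at chr16:23988853-23989102 and the second at chr16:23981284-23981533, both in GRCm38.p6. That is not the build of the hotspots, so neither was placed on a site.
Bcl6 start 1, GRCm38.p6, minus strand: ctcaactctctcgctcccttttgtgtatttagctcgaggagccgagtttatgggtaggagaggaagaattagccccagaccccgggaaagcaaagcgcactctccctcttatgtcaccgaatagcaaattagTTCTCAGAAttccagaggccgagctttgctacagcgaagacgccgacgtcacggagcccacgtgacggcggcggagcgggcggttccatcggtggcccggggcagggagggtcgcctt
Bcl6 start 2, GRCm38.p6, minus strand: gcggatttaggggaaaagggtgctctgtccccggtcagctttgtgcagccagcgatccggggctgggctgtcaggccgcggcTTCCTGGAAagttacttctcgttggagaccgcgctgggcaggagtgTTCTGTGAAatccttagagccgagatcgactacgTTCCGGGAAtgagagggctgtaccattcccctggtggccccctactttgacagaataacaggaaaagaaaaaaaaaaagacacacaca

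The core TTCNNNGAA occurred 1 time at the first start and 3 times at the second. Of the 32851 RefSeq promoter windows of the same length (250 bases before to 50 after a start), 8.30% held at least 1 match and 0.457% held at least 2. The CREB motif TGACGTCA (in 1.79% of the windows), the FOXO and FOXA motif GTAAACA (3.65%), the C/EBP motif TTGCNNAA (10.8%) and the palindromic glucocorticoid receptor motif (0.0639%) had 0 matches in either Bcl6 window on either strand. By gene order in RefSeq, Rtp2 lies on the far side of the gene. On the upstream side comes a run of long non-coding RNA genes (Gm31527, Gm46545, Gm31583, Gm32126, Gm31814 and Gm38456). The pseudogenes Gm41434 and Gm4521 and the long non-coding RNA gene Lppos follow, and then Lpp.

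The libraries differed in the number of hotspots and, on an assumption given below, in depth. The lists held 49682 to 63476 hotspots in fasted and 50990 to 63105 in fed libraries. Every maximum density was a whole multiple of a step of its library (within 0.05 step), and if 1 step is 1 tag, fasted replicate 2 and fed replicate 3 were sequenced 1.90 and 1.64 times as deeply as fed replicate 2, the shallowest. On that reading, the sites of the window were 34 to 695 tags high in fasted and 26 to 639 tags high in fed libraries.

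The window was rich in accessible sites. Its 35 sites compare with a median of 7 in 8233 genome tiles of the same 320 kb, of which 81 (0.984%) held as many or more. They covered 43.6 kb, with widths of 447 to 6333 bp (median 1038 bp). Sites 1 to 11 formed a group at the low end, followed by a stretch of 37.3 kb without a hotspot in any library. The site of highest mean density was site 29 (chr16:24221840-24224696), with maximum densities of 156, 130.4 and 169.5 in fasted replicates 1 to 3, against 162, 142 and 146 in fed replicates 1 to 3. The groups overlapped there. Site 22 (chr16:24089698-24091689) followed, with 127, 137 and 179.8 in fasted libraries, against 137, 117 and 113 in fed libraries. Site 27 (chr16:24199220-24200742) had 124, 122 and 124 in fasted libraries, against 132, 148 and 125 in fed libraries. By mean density, sites 29, 22 and 27 stood at percentiles 98.1, 97.1 and 96.7 of the 37044 regions called in all 6 libraries.

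**Figure D1:**
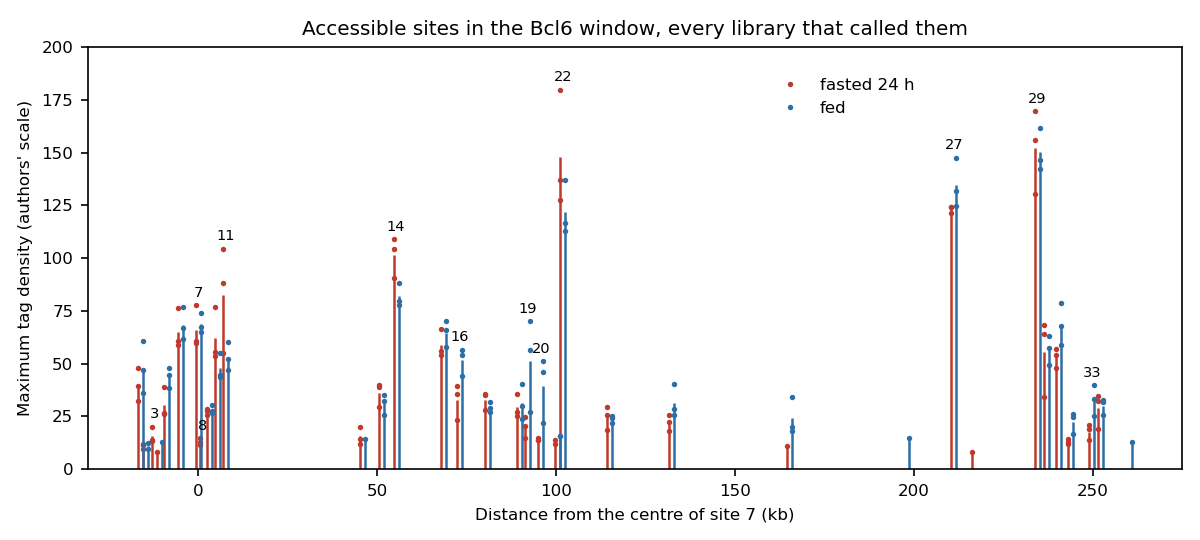
Maximum tag density (the authors' scale) of each of the 35 sites against the distance of its centre from that of site 7 in kb, with fasted libraries in red and fed libraries in blue. Points are libraries that called the site and stems are their means; the tallest stems are those of sites 22, 27 and 29, and the stems of sites 19 and 20 are shorter in fasted than in fed livers.

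Of the 35 sites, 25 were called in all 6 libraries and could be tested. The test was limma on log2(density + 1), after subtracting from each library its median at the 37044 shared regions, with Benjamini-Hochberg adjustment over all of them and a threshold of 0.05. Fasted livers were higher than fed livers at 1 of the 25 sites, site 11, where genome-wide 7.89% of shared regions passed in that direction. They were lower at 4 of the 25 (sites 16, 19, 20 and 33), where 7.84% did genome-wide. Together that is 20% of the 25 sites, against 15.7% of all shared regions, a share not far from the background. Log2 fold changes, given throughout as fasted minus fed, had a median of -0.0041 over the 25 sites and 0.03 over all shared regions. Their interquartile range ran from -0.40 to 0.10 over the sites and from -0.22 to 0.25 over all shared regions. On centred values, all fasted libraries lay above all fed libraries at 4 sites and below them at 7, where 16.8% and 14.6% of shared regions did so (31.4% in either direction).

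**Figure D2:**
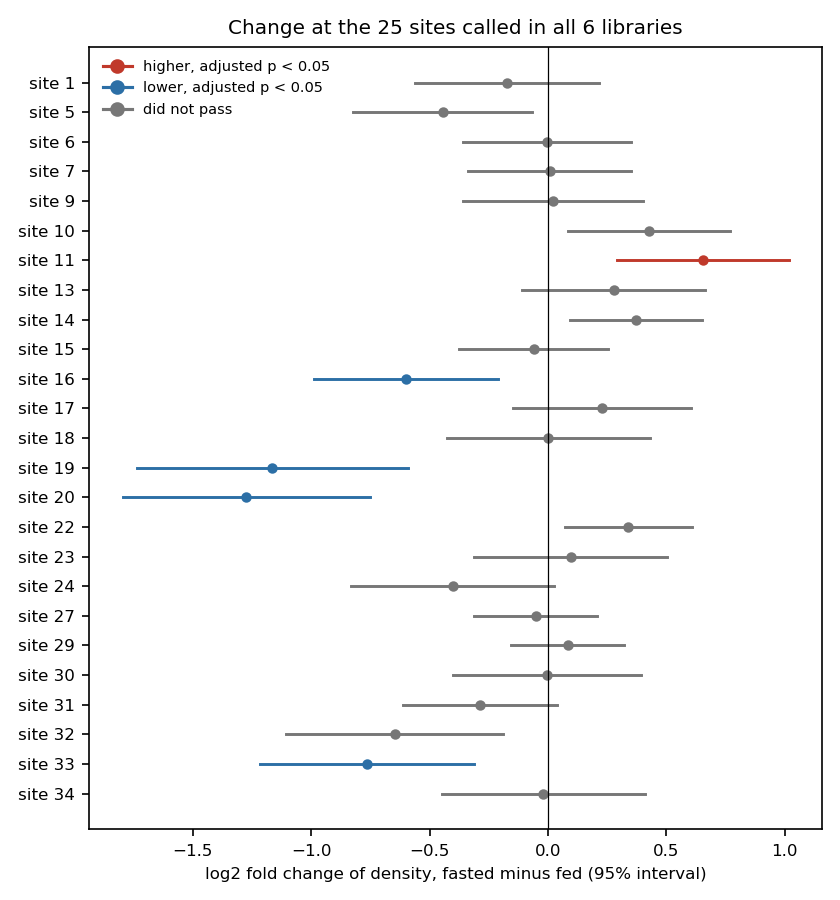
The log2 fold change of density, fasted minus fed, with its 95% interval (limma) for the 25 tested sites from low coordinate (top) to high. Red marks the 1 site that was higher in fasted livers at adjusted p under 0.05, blue the 4 that were lower and grey the others; sites 19 and 20 lie beyond -1.

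The neighbouring sites 19 and 20, whose centres lie 3.73 kb apart and which stand 84.4 and 88.2 kb from site 11, had 0.45 and 0.41 times the fed density in fasted livers (fitted on density + 1). Site 20 (chr16:24083730-24085189) had densities of 13.6, 14.8 and 13.6 in fasted libraries, against 45.97, 21.7 and 51.0 in fed libraries. The fasted libraries lay close together and below every fed library, while fed replicate 2 stood far below the other fed libraries. It averaged 14.01 ± 0.682 in fasted and 39.6 ± 15.7 in fed livers (SD, n = 3 each). In limma the log2 fold change came to -1.27 ± 0.25 (SE), with an adjusted p of 0.0012. Its hotspots were narrower in fasted livers, at 691, 957 and 769 bp in fasted libraries against 1263, 1198 and 1435 bp in fed libraries. Whether their width changed apart from their density was not tested.

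Site 19 (chr16:24080169-24081284) had 20.4, 24.7 and 14.8 in fasted libraries, against 56.3, 26.98 and 70.03 in fed libraries. Fed replicate 2 stood just above the highest fasted library as deposited and just below it after centring, so the groups overlapped on the scale of the test. Site 19 averaged 19.98 ± 4.93 in fasted and 51.1 ± 21.99 in fed livers (SD, n = 3 each). In limma the log2 fold change came to -1.16 ± 0.27 (SE), with an adjusted p of 0.0053. Without fed replicate 3 the fall of site 19 was -0.86 with an adjusted p of 0.054 (limma), while site 20 stayed past the threshold when any 1 library was left out. At 9.97 kb from site 19 and 6.23 kb from site 20, site 22 had a log2 fold change of 0.34 and did not pass (adjusted p = 0.082, limma).

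Sites 16 and 33 were also lower in fasted livers. Site 16 (chr16:24061399-24062244) had 39.4, 23.1 and 35.4 in fasted libraries, against 56.6, 44.2 and 54.0 in fed libraries. All fasted libraries lay below all fed libraries, and limma gave a log2 fold change of -0.60 ± 0.19 (SE) at an adjusted p of 0.032. Site 33 (chr16:24238038-24238915) had 13.9, 20.7 and 18.8 in fasted libraries, against 39.7, 25.1 and 33.2 in fed libraries. The groups did not overlap there either, and limma gave a log2 fold change of -0.76 ± 0.22 (SE) at an adjusted p of 0.019. Its neighbour site 32 (chr16:24232202-24233194), 5.78 kb away, had 14.2, 13.02 and 11.8 in fasted libraries, against 24.6, 16.5 and 26.1 in fed libraries, and missed the threshold by a narrow margin (log2 fold change -0.65, adjusted p = 0.0504, limma). At sites 16, 19, 20, 32 and 33 fed replicate 2 was the lowest fed library as deposited. The call of site 16 ended without fasted replicate 2 or 3 or fed replicate 1 or 3 (adjusted p = 0.104, 0.055, 0.113 and 0.125, limma), with depth as a covariate (0.070) and with no mean-variance trend (0.058). The call of site 33 ended without fasted replicate 1 or fed replicate 1 or 3 (adjusted p = 0.128, 0.106 and 0.076, limma).

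Site 11 (chr16:23995517-23997100), the last of the group at the low end, was the 1 tested site that passed the threshold as higher in fasted livers. Its densities were 87.9, 55.1 and 104.4 in fasted libraries, against 60.3, 52.1 and 47.1 in fed libraries. As deposited, fasted replicate 2 lay below fed replicate 1, and after centring all fasted libraries lay above all fed libraries. It averaged 82.5 ± 25.1 in fasted and 53.2 ± 6.65 in fed livers (SD, n = 3 each), and limma gave a log2 fold change of 0.65 ± 0.17 (SE) at an adjusted p of 0.013. The call was lost without centring (adjusted p = 0.0507, limma) and without fasted replicate 1 or 3 or fed replicate 3 (adjusted p = 0.067, 0.076 and 0.051, limma). Fed replicates 1 and 2 listed a second, weak hotspot on the low-coordinate side of the site, with a maximum density of 16.5 in both, and fed replicate 3 listed 1 hotspot of 1522 bp across the whole site. In the 3 fasted libraries the site was a single hotspot of 908 to 954 bp.

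Sites 10, 14 and 22 also had every fasted library above every fed library after centring, with log2 fold changes of 0.43, 0.37 and 0.34, but none passed (adjusted p = 0.087, 0.064 and 0.082, limma). Site 22 passed without fasted replicate 1 (0.46, adjusted p = 0.044, limma) and with the average density (0.41, adjusted p = 0.032, limma). Site 14 (chr16:24043519-24044598) had 109, 90.8 and 104.1 in fasted libraries, against 88.3, 77.9 and 79.6 in fed libraries.

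**Figure D3:**
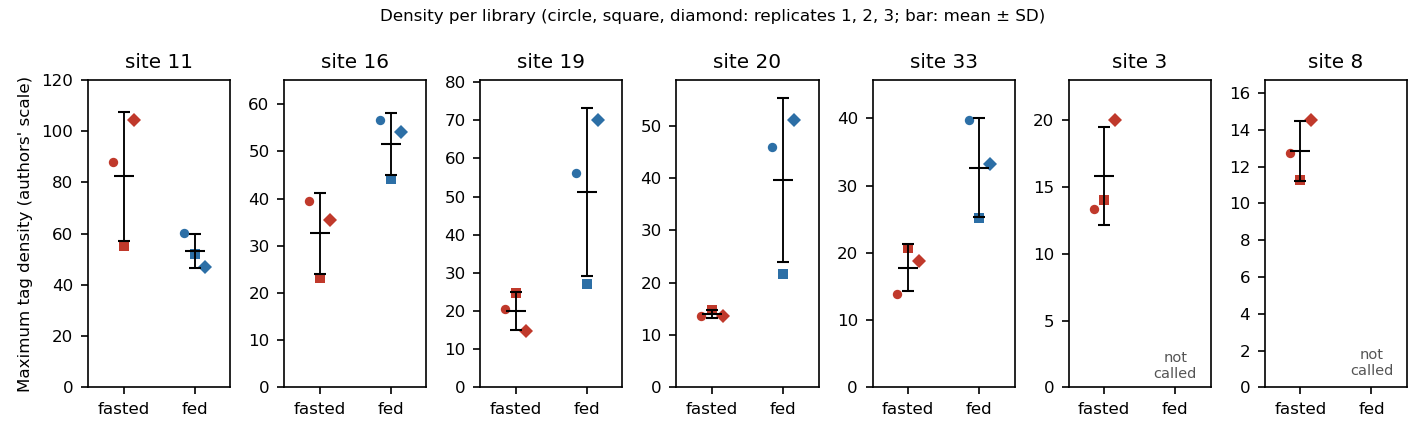
Maximum tag density (the authors' scale) per library at the 5 sites that passed the test (11, 16, 19, 20 and 33) and at sites 3 and 8, with fasted left of fed. Marker shapes are replicates 1, 2 and 3 and bars are the mean ± SD; at site 20 the fasted points run from 13.6 to 14.8 and the fed points from 21.7 to 51.0, and sites 3 and 8 had no hotspot in a fed library.

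A further difference lay inside a wide region. Site 6 (chr16:23980697-23987029), at 6333 bp the widest, had a highest density of 58.7, 76.2 and 60.5 in fasted libraries, against 61.8, 67.1 and 76.7 in fed libraries, and a log2 fold change of -0.0036 (95% interval -0.36 to 0.35, adjusted p = 0.99, limma). It joins several hotspots, because the single hotspot of fed replicate 3 spans 6110 bp, while the other libraries hold 2 to 4. With fed replicate 3 left out and the other 5 lists merged again, a choice made after the data were seen, the site parted in 2. The low-coordinate part (chr16:23980714-23982026) had 15.3, 15.4 and 17.6 in fasted libraries, against 60.7 and 39.7 in fed replicates 1 and 2. The fasted libraries lay close together, far below both fed values. In limma over 37431 regions, with 3 fasted against 2 fed libraries, its log2 fold change came to -1.48 ± 0.23 (SE), with an adjusted p of 0.000167, where site 20 had -1.04 in the same fit. Fed replicate 3 was the highest fed library at sites 19 and 20, which had -1.55 and -1.63 without fed replicate 2. The other part (chr16:23982057-23987029) had a log2 fold change of 0.09 (95% interval -0.31 to 0.49, adjusted p = 0.84, limma). The height of the low-coordinate part in fed replicate 3 is unknown, since the list gives only the highest density of the spanning hotspot.

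**Figure D4:**
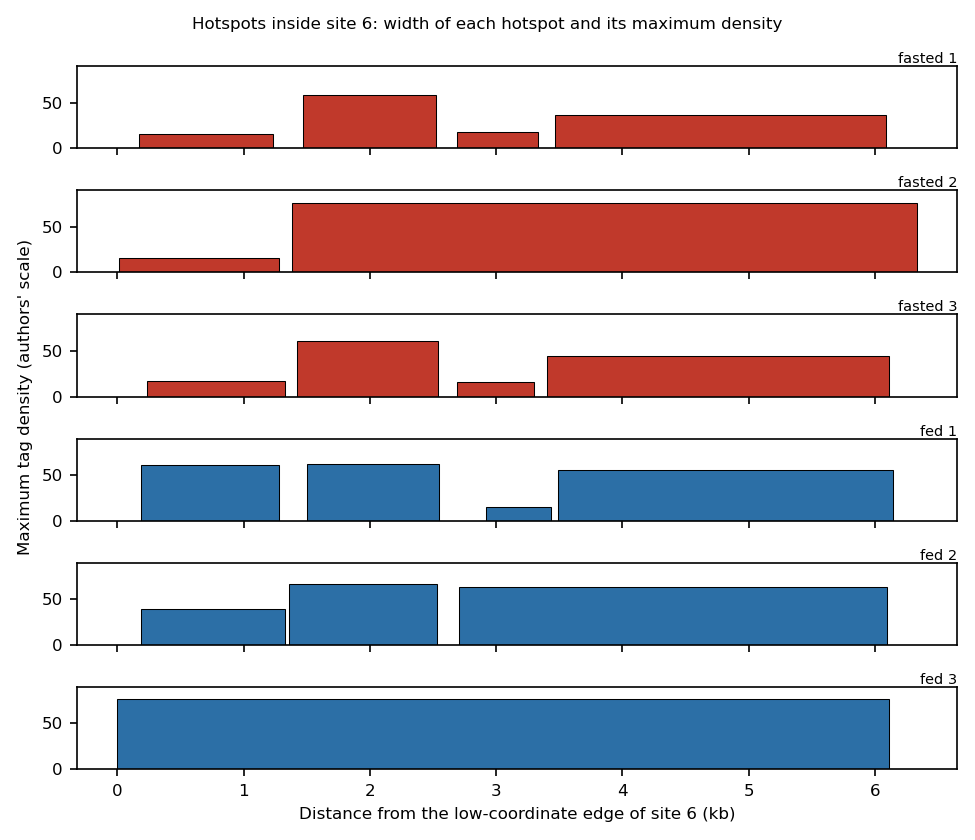
The hotspots inside site 6 in each library, drawn at their width (kb from the low-coordinate edge of the site) and with their maximum tag density (the authors' scale) as height, fasted libraries in red above fed libraries in blue. The first hotspot is 15.3 to 17.6 high in the 3 fasted libraries and 60.7 and 39.7 in fed replicates 1 and 2; in fed replicate 3 it is joined to the rest, so a flat bar there does not show the profile within it.

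Site 7 (chr16:23988012-23989541) lies next to site 6. Its densities were 59.6, 77.8 and 60.8 in fasted libraries, against 73.9, 64.8 and 67.5 in fed libraries. The groups overlapped, with a log2 fold change of 0.0068 and a 95% interval of -0.34 to 0.35 (adjusted p = 0.99, limma). For the strong sites 27 and 29 the intervals ran from -0.31 to 0.21 around -0.05 and from -0.15 to 0.32 around 0.08. Changes of a size within these intervals are not excluded at any of these sites. The 20 sites that did not pass had log2 fold changes of -0.65 to 0.43. Of these, site 5 (chr16:23979186-23980594) lies 102 bp from site 6 and had 26.7, 26.2 and 38.7 in fasted libraries, against 47.8, 38.6 and 44.4 in fed libraries. Before centring fasted replicate 3 stood just above fed replicate 2, and after centring the groups did not overlap (log2 fold change -0.44, adjusted p = 0.108, limma).

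The other 10 sites were missing from at least 1 list and were not tested, since a missing call is an unknown density and not 0. Their densities where called ran from 8.09 to 34.2. Sites 3 and 8 were called in all 3 fasted and no fed libraries (1.17% of all 75169 regions were), and 0 sites in all 3 fed and no fasted libraries (1.57%). Site 3 (chr16:23976154-23976778) had densities of 13.3, 14.01 and 19.98 in the fasted libraries. Site 8 (chr16:23989664-23990225) had 12.8, 11.2 and 14.5 in the fasted libraries and lies 122 bp from site 7, which it joined when hotspots within 150 bp were merged. The lowest density called in the window was 9.56, 12.7 and 12.1 in fed replicates 1 to 3. That is not a calling limit, since the lowest density in the whole list was 0.74, 0.37 and 0.46 in these libraries. Site 12 was called in all 3 fasted libraries (14.5, 12.0 and 19.98) and in fed replicate 3 (14.2). Site 25 (chr16:24153747-24154283) was called in 1 fasted and all 3 fed libraries, with 10.9 in fasted replicate 2, against 34.2, 18.0 and 19.9 in the 3 fed libraries. Sites 26, 28 and 35 were each called in 1 library, at densities of 14.7 in fed replicate 1, 8.29 in fasted replicate 2 and 13.0 in fed replicate 3. Sites 2, 4 and 21 were called in some libraries of both groups.

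**Figure D5:**
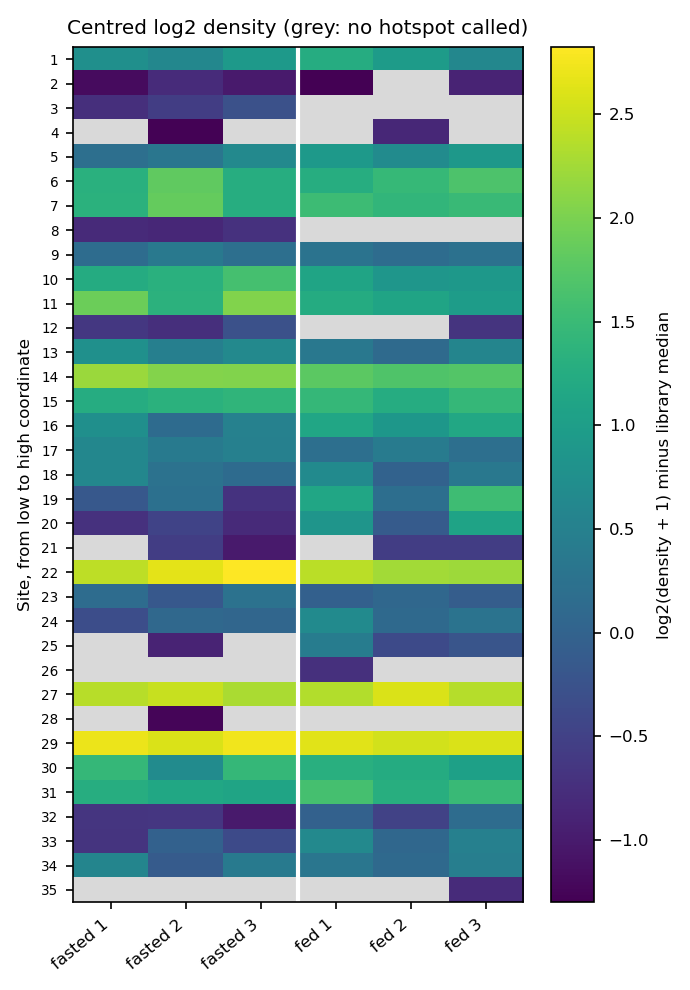
Centred log2(density + 1) of the 35 sites (rows, low to high coordinate) in the 3 fasted (left) and 3 fed (right) libraries, with grey where a library called no hotspot. Sites 22, 27 and 29 are bright in every library, sites 19 and 20 are darker in fasted libraries and, among the fed ones, in replicate 2, and sites 3 and 8 are grey in every fed library.

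Along the window the changes did not form a single block. In 4 bins of 80 kb from low to high coordinate, 1 of 7 tested sites was higher and 0 lower in the first, 0 of 8 higher and 3 lower in the second, 0 of 3 either way in the third, and 0 of 7 higher and 1 lower in the fourth. This tally takes site 6, in the first bin, as a whole and so does not count the lower density of its low-coordinate part. The signs were mixed in the first 3 bins (4 positive and 3 negative, 4 and 4, 2 and 1), and in the fourth 6 of 7 fold changes were negative. Several of these signs, in more than 1 bin, rest on very small fold changes. In the fourth bin sites 27, 30 and 34 had log2 fold changes of -0.05, -0.0041 and -0.019, and each turned sign under some alternatives. As a description of likeness, the median over the 25 sites was taken in each library, at centred log2 densities of 0.75, 0.48 and 0.64 in fasted and 1.14, 0.87 and 0.98 in fed libraries. These medians differ more between the groups than the median of the sites' own fold changes does. Of the shared regions elsewhere, the 3 with the smallest root mean square difference from this pattern over the 6 libraries lie at chr7:28473782-28474858, chr1:138124390-138126150 and chr17:15271553-15272896, with differences of 0.034, 0.040 and 0.043 on the log2 scale. None of these 3 passed the test (log2 fold changes -0.32, -0.44 and -0.37, adjusted p = 0.17, 0.18 and 0.15, limma). They are like this pattern of medians and not like the typical site, since the median log2 fold change over the 25 sites was -0.0041.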

How the data were processed

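The authors deposited 1 hotspot list per library, so hotspots were called per sample. Per the submitters' processing notes, CASAVA 1.8 and build mm9 were used; the sources used here do not name the aligner or the hotspot caller. Per the file headers, a maximum and an average tag density describe each hotspot. They are a coverage signal deposited by the authors whose scale is not stated. The z-score and the p-value deposited by the authors, the caller's score per hotspot, entered no comparison.

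A site took the highest maximum density among its hotspots in each library. The limma fit (version 3.58.1 in R 4.3.3; eBayes, mean-variance trend) used regions present in all 6 lists. Fold changes on the log2(density + 1) scale understate the change of weak sites. Tables and figures came from Python 3.11.15 with numpy 2.4.6 and pandas 2.3.3, and from matplotlib 3.10.9. The window, the sites and the tests were chosen with earlier results of these data known. Values were given in full for sites past the threshold, sites called in 1 group only and the 5 of highest mean density; the other sites named were chosen after their values were seen. Alternatives covered pseudocounts, scaling, average density, missing calls, low values, the variance model, the replicate block, depth, coverage, merging distance, equal lists and each library left out.

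In a simulation of fasted against fed on 37044 regions (200 altered), limma found 88% of those raised and 74% of those lowered by 1 on the log2 scale. At a change of 0.5 it found 16% (raised) and 4% (lowered). There were 5 false calls, and 1 when no region was altered. The altered regions were split equally over these changes. In the data 5826 of the 37044 regions passed, far more than the 200 altered here. The adjustment was therefore stricter in the simulation, and these shares do not give the power of the test on the data. Noise was normal, independent and drawn from the variances of the fit itself. The simulation therefore does not test that noise model or differences in depth between libraries. Loci of other genes of the pathway were planned but not analysed here, since no mm9 annotation was used, and liver marker loci were not looked up for the same reason.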

Additional observations from a re-analysis of the deposited data

How the results depend on the processing

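Of the sites that passed, site 20 passed under all 19 alternatives that tested it, site 19 under 17 of 19, site 33 under 15 of 20, site 11 under 14 of 19 and site 16 under 12 of 20, none with a change of sign. The tally of site 11 leaves out the lists merged again without fed replicate 3, where the site parted. Its main part (chr16:23996142-23997100) did not pass there (log2 fold change 0.58, adjusted p = 0.060, limma). Site 32, which missed the threshold, passed under 9 of 19. The single higher site became 0 without centring, 2 with the average density (sites 11 and 22) and 3 with missing calls set to the lowest density of the library (sites 3, 8 and 14), which fixes the direction of sites called in 1 group only; there 1 site was lower in place of 4, and sites 11, 16, 19 and 33 lost their calls (adjusted p = 0.066, 0.078, 0.091 and 0.073, limma). Leaving out each library gave 0 to 1 higher (without fasted replicate 1, site 22 in place of site 11) and 1 to 5 lower sites, the fewest without fed replicate 3 (0 and 1), with 2 lower without fed replicate 1 and 0 higher without fasted replicate 3. With fed replicate 3 left out and the lists merged again, 0 were higher and 3 lower. Genome-wide counts moved as well, from 2921 higher and 2905 lower of 37044 regions with all 6 libraries. They were 1946 and 3189 of 37044 without centring and 2696 and 3017 of 52890 with missing calls at the lowest density. Without fed replicate 3 they were 2178 and 2021 of 37146, and 1999 and 2178 of 37431 with the lists merged again. Libraries of the same number showed no shared deviation (-0.067, -0.030 and -0.167 as correlations across regions), and with the replicate block 1 site was higher and 4 lower, the same sites. Sites called in 1 group only numbered 1 in place of 2 with hotspots within 150 bp merged and 2 to 3 on leaving out each library. A hotspot had to cover at least 50% of its region in 1 alternative, where sites 19 and 20 could not be tested because a fasted hotspot was too narrow.

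No site that turned sign under an alternative passed there, and none of these sites had passed with all 6 libraries. Site 1 had 0.0044 with depth as a covariate. Site 6 had -0.18 to 0.11 on leaving out each library (turned without fasted replicate 1, fasted replicate 3, fed replicate 3). Site 7 had -0.0046 with a pseudocount of 10, -0.065 with no centring, -0.11 with quantile normalization, -0.030 with average density, -0.074 with the upper 50% by density, -0.11 with depth as a covariate, -0.0018 with equal lists and -0.17 to 0.12 on leaving out each library (turned without fasted replicate 2, fed replicate 2). Site 9 had -0.051 with no centring, -0.060 with the upper 50% by density, -0.022 with depth as a covariate and -0.041 to 0.074 on leaving out each library (turned without fasted replicate 2, fed replicate 2). Site 18 had -0.0060 with a pseudocount of 10, -0.071 with no centring, -0.024 with quantile normalization, -0.080 with the upper 50% by density, -0.0045 with 50% cover, -0.0046 with merging within 150 bp, -0.0078 with equal lists, -0.0066 with the lists merged again and -0.17 to 0.17 on leaving out each library (turned without fasted replicate 1, fed replicate 2). Site 27 had 0.044 with average density and -0.097 to 0.032 on leaving out each library (turned without fasted replicate 3, fed replicate 2). Site 29 had -0.053 with quantile normalization. Site 30 had 0.21 with depth as a covariate and -0.12 to 0.25 on leaving out each library (turned without fasted replicate 2, fed replicate 1, fed replicate 2). Site 34 had 0.038 with depth as a covariate, 0.051 with the lists merged again and -0.15 to 0.18 on leaving out each library (turned without fasted replicate 2, fed replicate 1, fed replicate 3). The cause was not tested.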
